A study of Mus musculus with 6 samples.

Results

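The 10 circadian clock genes described here are Per1, Per2, Per3, Cry1, Cry2, Nr1d1, Nr1d2, Dbp, Bhlhe40 and Ciart. They were chosen by symbol from the deposited table of 33682 rows, in which each had 1 row. The rule uses no expression value, although the genes were proposed with earlier results of these data known. RNA sequencing was performed on 6 samples of cultured neonatal rat heart cells of wild-type genotype, 3 per group. All 6 received conditioned medium (the supernatant of another culture) from bone marrow-derived mast cells (BMMCs) stimulated with the cytokine TNF-alpha. The mast cells were wild type in one group (WT medium) and ALOX5-/- in the other (Alox5KO medium), so they lacked 5-lipoxygenase, the enzyme that begins leukotriene synthesis. In the sample labels the sequenced cells are cardiomyocytes, and in the design text they are cardiac fibroblasts. The marker medians go against the cardiomyocyte label. Per library, the median of 12 fibroblast markers, led by Col1a1, lay between 358 and 954 FPKM. That of the 13 cardiomyocyte markers in the table lay between 0.562 and 2.06 FPKM. The cardiomyocyte list was mixed, with Myl2 at 0 throughout, Tnnt2 between 16.1 and 91.6 FPKM and Nppa between 9.05 and 17.5 FPKM. FPKM is the number of sequenced fragments of a gene, divided by gene length and library size. No culture without mast cell medium was analysed here. Separate cultures for the replicates are not stated in the labels, so the p-values reflect the spread among these samples, and that spread may be technical.

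The circadian clock of most cells is a feedback loop of transcription. The activators CLOCK and BMAL1 switch on the Per and Cry genes, whose protein products return to the nucleus and repress that activity. A further loop runs through REV-ERB alpha and beta (encoded by Nr1d1 and Nr1d2), which repress the Bmal1 gene, and output factors such as DBP pass the rhythm on to other genes. Cultured fibroblasts carry such clocks, which serum, glucocorticoids and cAMP signals are known to reset. The labels give no harvest time and no synchronisation step, so levels were measured here and rhythm was not.

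Of the 10 clock genes, 3 rose with Alox5KO medium, namely Nr1d1, Dbp and Cry2. Bhlhe40 fell, and the other 6 did not pass the test. A gene passed where limma gave a Benjamini-Hochberg adjusted p under 0.05 on log2(FPKM + 1), over the 12341 genes whose mean over the 6 libraries reached 1 FPKM, which included all 10 clock genes. Beside the 3 of 10 that rose and the 1 of 10 that fell, 10.03% of all tested genes rose and 10.6% fell, together 20.7%. The values of the 2 groups did not overlap for 7 of the 10 clock genes, against 37.6% of all tested genes. The median log2 fold change, Alox5KO minus WT medium, was 0.23 for the clock genes and -0.00082 for all tested genes. Leaving out replicate 1 or 2 of the WT-medium group or replicate 3 of the Alox5KO-medium group lowered the number of clock genes that rose from 3 to 1, with Nr1d1 remaining in each case. In whole-culture RNA such as this, fewer cells of a type and less RNA per cell cannot be told apart.

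**Figure D1:**
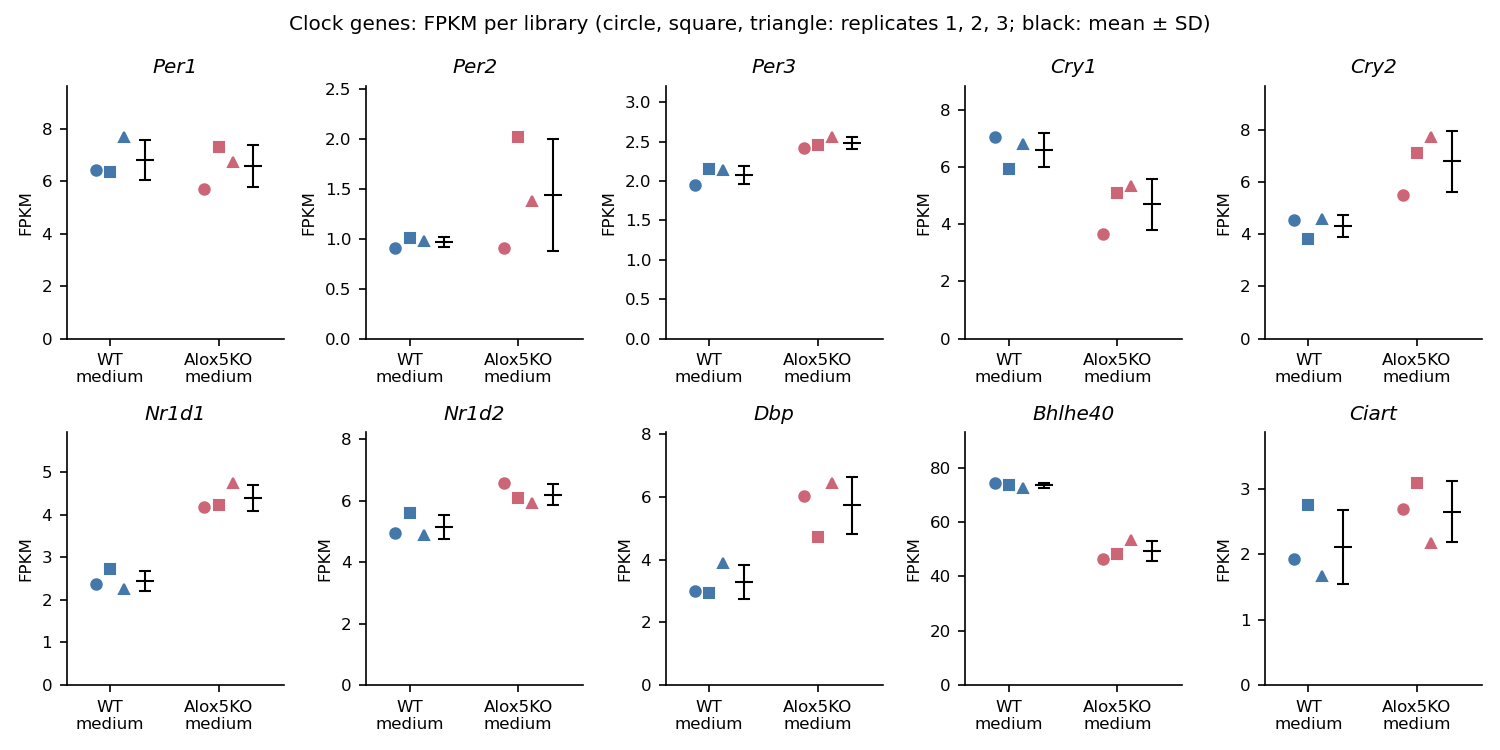
FPKM of the 10 clock genes in each library, with WT medium in blue and Alox5KO medium in red, circles, squares and triangles for replicates 1, 2 and 3, and black bars for the mean ± SD (n = 3). The groups are apart for Nr1d1, Dbp, Cry2, Bhlhe40, Cry1, Nr1d2 and Per3, and overlap for Per1, Per2 and Ciart.

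Nr1d1 encodes REV-ERB alpha, a nuclear receptor that represses Bmal1 and is itself a direct target of CLOCK and BMAL1. Nr1d1 (ENSRNOG00000009329, chromosome 10, 86683875 to 86690815, minus strand in the table's coordinates) had 2.37, 2.71 and 2.25 FPKM in the WT-medium libraries and 4.19, 4.24 and 4.74 FPKM in the Alox5KO-medium libraries. All 3 Alox5KO-medium libraries lay above all 3 WT-medium libraries. Its mean went from 2.45 ± 0.240 FPKM with WT medium to 4.39 ± 0.306 with Alox5KO medium (SD, n = 3 per group), which is 1.795-fold. The log2 fold change of Nr1d1 was 0.65 (SE 0.13, adjusted p = 0.0069 by limma with Benjamini-Hochberg correction), and it was 0.82 at a pseudocount of 0.1, since adding 1 shrinks the fold change of weakly expressed genes. These values of Nr1d1 rest on 259 reads in the WT-medium and 520 in the Alox5KO-medium libraries. The last 1059 bases of the gene overlap Thra, which lies on the opposite strand and encodes a thyroid hormone receptor. The sources used here do not give whether strand was used in counting, so reads of Nr1d1 and Thra in that overlap cannot be told apart. Thra itself, looked up for this overlap, had 15.5 ± 1.97 FPKM with WT medium and 13.4 ± 1.22 with Alox5KO medium (SD, n = 3 per group) and did not pass (log2 fold change -0.19, adjusted p = 0.33 by limma with Benjamini-Hochberg correction).

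Nr1d2 encodes the related receptor REV-ERB beta, which shares the repression of Bmal1. Nr1d2 (ENSRNOG00000046912, chromosome 15, 8730871 to 8757165, plus strand) had 4.95, 5.59 and 4.88 FPKM in the WT-medium libraries and 6.58, 6.08 and 5.92 FPKM in the Alox5KO-medium libraries. The groups did not overlap, and the lowest Alox5KO-medium library was close above the highest WT-medium library. Its log2 fold change was 0.23 with a 95% interval from -0.03 to 0.49, which did not pass (adjusted p = 0.21 by limma with Benjamini-Hochberg correction).

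Dbp encodes a PAR bZIP activator that is among the most strongly rhythmic direct targets of CLOCK and BMAL1. Dbp (ENSRNOG00000021027, chromosome 1, 101687855 to 101692846, plus strand) had 3.01, 2.95 and 3.90 FPKM in the WT-medium libraries and 6.04, 4.71 and 6.44 FPKM in the Alox5KO-medium libraries. Every Alox5KO-medium library was above every WT-medium library, the nearest being WT-medium replicate 3 and Alox5KO-medium replicate 2. The mean of Dbp went from 3.29 ± 0.535 FPKM with WT medium to 5.73 ± 0.905 with Alox5KO medium (SD, n = 3 per group). This is 1.74-fold. Its log2 fold change was 0.65 (SE 0.15, adjusted p = 0.015 by limma with Benjamini-Hochberg correction), from 234 and 452 reads. The call for Dbp was lost when WT-medium replicate 1 or 2 or Alox5KO-medium replicate 1 or 3 was left out, with adjusted p-values up to 0.063.

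Cry1 and Cry2 encode the cryptochromes, the main repressors of CLOCK and BMAL1; Cry2 rose and Cry1 did not pass, with values on the lower side. Cry2 (ENSRNOG00000007478, chromosome 3, 81314149 to 81344110, minus strand) had 4.53, 3.81 and 4.57 FPKM in the WT-medium libraries and 5.50, 7.12 and 7.74 FPKM in the Alox5KO-medium libraries. The mean of Cry2 went from 4.30 ± 0.426 FPKM with WT medium to 6.78 ± 1.16 with Alox5KO medium (SD, n = 3 per group) without overlap of the groups, which is 1.58-fold. The rise had a log2 fold change of 0.55 (SE 0.14, adjusted p = 0.026 by limma with Benjamini-Hochberg correction). The call for Cry2 was lost without a filter on low values (adjusted p = 0.054) and when WT-medium replicate 1 or 2 or Alox5KO-medium replicate 2 or 3 was left out (adjusted p up to 0.097). Cry1 (ENSRNOG00000006622, chromosome 7, 24534615 to 24634097, plus strand) had 7.08, 5.93 and 6.82 FPKM in the WT-medium libraries and 3.68, 5.11 and 5.33 FPKM in the Alox5KO-medium libraries. Every Alox5KO-medium library was below every WT-medium library, and Alox5KO-medium replicate 1 was the lowest. The log2 fold change of Cry1 was -0.42 with a 95% interval from -0.76 to -0.09. It did not pass over all tested genes (adjusted p = 0.075 by limma with Benjamini-Hochberg correction).

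The period genes Per1, Per2 and Per3 encode the partners of the cryptochromes in the repressor complex, and none of the 3 passed the test. Per1, which is also an immediate early gene of clock resetting (ENSRNOG00000007387, chromosome 10, 55687050 to 55695994, plus strand), had 6.42, 6.35 and 7.71 FPKM in the WT-medium libraries and 5.71, 7.30 and 6.75 FPKM in the Alox5KO-medium libraries. The libraries of both groups were intermixed. For Per1 the log2 fold change was -0.05 with a 95% interval from -0.34 to 0.25 (adjusted p = 0.85 by limma with Benjamini-Hochberg correction), and its sign turned positive when values were rescaled to TPM. Per2 (ENSRNOG00000020254, chromosome 9, 98555169 to 98597359, minus strand) had 0.909, 1.01 and 0.981 FPKM in the WT-medium libraries and 0.912, 2.03 and 1.38 FPKM in the Alox5KO-medium libraries. The 3 WT-medium libraries were close together, while Alox5KO-medium replicate 1 lay among them and the other 2 lay above. For Per2 the log2 fold change was 0.29 with a 95% interval from -0.17 to 0.74 (adjusted p = 0.37 by limma with Benjamini-Hochberg correction). It was 0.46 at a pseudocount of 0.1, 0.53 by limma-voom on the recovered reads, 0.12 without Alox5KO-medium replicate 2 and 0.45 without Alox5KO-medium replicate 1, and passed in none of these. Per2 had the lowest level of the 10 genes in both groups, and its mean reached the 1 FPKM of the filter through the Alox5KO-medium libraries. Per3 (ENSRNOG00000018413, chromosome 5, 168086998 to 168123395, minus strand) had 1.95, 2.15 and 2.14 FPKM in the WT-medium libraries and 2.42, 2.45 and 2.56 FPKM in the Alox5KO-medium libraries. Its groups were narrow and did not overlap, yet the log2 fold change of 0.18, with a 95% interval from -0.12 to 0.47, did not pass (adjusted p = 0.41 by limma with Benjamini-Hochberg correction), and it was 0.28 by limma-voom.

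Bhlhe40 and Ciart encode further repressors of CLOCK and BMAL1. The Bhlhe40 product, DEC1, binds the same E-box elements as the activators and also responds to cytokines and growth factors. Bhlhe40 (ENSRNOG00000007152, chromosome 4, 140703619 to 140709319, plus strand) had 74.3, 73.7 and 72.3 FPKM in the WT-medium libraries and 46.3, 48.3 and 53.2 FPKM in the Alox5KO-medium libraries. The groups lay far apart, and the WT-medium libraries differed little from one another. The mean of Bhlhe40 went from 73.4 ± 1.04 FPKM with WT medium to 49.3 ± 3.56 with Alox5KO medium (SD, n = 3 per group), 0.671 times the WT-medium level. Its log2 fold change was -0.57 (SE 0.09, adjusted p = 0.0023 by limma with Benjamini-Hochberg correction), from 7270 and 5445 reads. Ciart (ENSRNOG00000042717, chromosome 2, 197987705 to 197991574, minus strand) had 1.92, 2.76 and 1.67 FPKM in the WT-medium libraries and 2.69, 3.09 and 2.17 FPKM in the Alox5KO-medium libraries. The groups overlapped, and with 152 and 215 reads the log2 fold change of 0.24 had a wide 95% interval, from -0.17 to 0.64 (adjusted p = 0.41 by limma with Benjamini-Hochberg correction). Over the alternatives the value for Ciart ran from 0.13 without WT-medium replicate 3 to 0.38 without WT-medium replicate 2, and it was 0.15 without Alox5KO-medium replicate 2 and 0.37 by limma-voom.

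FPKM corrects for gene length, so the 10 genes can also be ordered by level. Bhlhe40 was the most abundant clock gene in both groups and Per2 the least, and neither overlapped its neighbour in the order. With WT medium the genes between them ran from Per1 (6.83 ± 0.764 FPKM) and Cry1 (6.61 ± 0.602) over Nr1d2, Cry2 and Dbp to Nr1d1, Ciart and Per3 (2.08 ± 0.116; all SD, n = 3). In that order Per1 overlapped Cry1, Cry2 overlapped Dbp, and Nr1d1, Ciart and Per3 overlapped in turn. With Alox5KO medium the order was Cry2, Per1, Nr1d2, Dbp, Cry1 and Nr1d1, each overlapping the next, and then Ciart and Per3, which overlapped each other. Cry2 thus stood below Cry1 with WT medium and above it with Alox5KO medium.

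The partners and regulators of these genes came from a list of 13 symbols of other clock transcription factors, of which 11 were in the table and 8 were tested. Bmal1 and its paralog are listed there as Arntl and Arntl2. Among the 8, Bhlhe41 rose, Arntl and Npas2 fell, and 5 did not pass, beside 10.03% higher and 10.6% lower of all tested genes. The median log2 fold change of the 8 was -0.01. Arntl, which encodes the activator BMAL1, had 25.7, 24.2 and 30.2 FPKM in the WT-medium libraries and 19.3, 15.5 and 20.8 FPKM in the Alox5KO-medium libraries. Its groups did not overlap, and its log2 fold change was -0.51 (SE 0.13, adjusted p = 0.025 by limma with Benjamini-Hochberg correction). The call for Arntl was lost without a filter on low values (adjusted p = 0.059), after rescaling to TPM (0.056), and when WT-medium replicate 1 or 3 or Alox5KO-medium replicate 1 or 2 was left out (up to 0.067). Npas2, a paralog of Clock that can take its place beside BMAL1, had 2.05, 1.55 and 2.79 FPKM in the WT-medium libraries and 0.864, 0.578 and 0.696 FPKM in the Alox5KO-medium libraries. Npas2 had a log2 fold change of -0.85 (SE 0.19, adjusted p = 0.013 by limma with Benjamini-Hochberg correction), and it was -1.43 at a pseudocount of 0.1. Clock itself had 4.75, 5.20 and 5.05 FPKM in the WT-medium libraries and 7.08, 7.21 and 4.65 FPKM in the Alox5KO-medium libraries. Alox5KO-medium replicate 3 was the lowest of the 6 libraries for Clock and the other 2 of its group were the highest. For Clock the log2 fold change of 0.27 did not pass (adjusted p = 0.30 by limma with Benjamini-Hochberg correction), although it passed without Alox5KO-medium replicate 3 (0.44, adjusted p = 0.045).

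Bhlhe41 encodes DEC2, the paralog of DEC1, and it went the opposite way to Bhlhe40. It had 0.536, 0.573 and 0.811 FPKM in the WT-medium libraries and 2.21, 3.15 and 2.82 FPKM in the Alox5KO-medium libraries, with the groups well apart. The log2 fold change of Bhlhe41 was 1.18 (SE 0.17, adjusted p = 0.0013 by limma with Benjamini-Hochberg correction), and it was 1.94 at a pseudocount of 0.1, from 32 and 152 reads. Bhlhe41 reached the mean of 1 FPKM through the Alox5KO-medium libraries and Npas2 through the WT-medium libraries, so both entered the test on the group in which they were high. Nfil3, the repressor that competes with DBP for D-box elements, had 19.96 ± 1.09 FPKM with WT medium and 17.3 ± 1.03 with Alox5KO medium (SD, n = 3 per group) without overlap of the groups, and did not pass (log2 fold change -0.20, adjusted p = 0.20 by limma with Benjamini-Hochberg correction). Tef, a PAR bZIP relative of DBP, had a log2 fold change of 0.12, Arntl2 one of 0.16, and Rora, which encodes an activator of the Bmal1 gene, one of -0.14, none of which passed. Hlf, another PAR bZIP factor, lay under the filter, with 0.960, 1.198 and 0.935 FPKM in the WT-medium libraries and 0.445, 0 and 0.223 FPKM in the Alox5KO-medium libraries. Hlf had only 38 and 9 reads. Without a filter on low values it passed as lower (log2 fold change -0.75, adjusted p = 0.030 by limma with Benjamini-Hochberg correction). Rorb was also under the filter, with 10 and 5 reads.

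**Figure D2:**
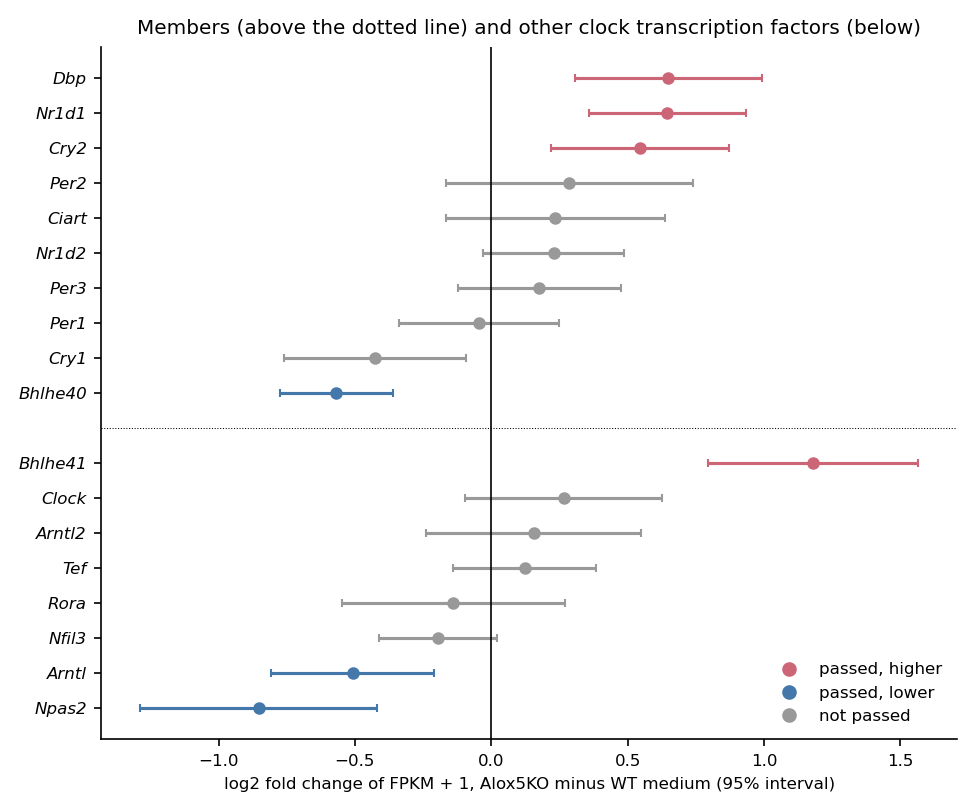
Log2 fold change of FPKM + 1, Alox5KO minus WT medium, for the 10 clock genes above the dotted line and the 8 tested other clock factors below it. Bars are 95% intervals, and colour marks the genes that passed limma with Benjamini-Hochberg adjustment as higher (red) or lower (blue). Nr1d1, Dbp, Cry2 and Bhlhe41 lie to the right of 0 and Bhlhe40, Arntl and Npas2 to the left.

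Ratios of FPKM within a library remove what a scaling of that library would do to both genes alike. The 8 pairs were chosen with the values known, so they are a description without a test. Folds of ratios were taken from the group means of the log2 ratio. They can therefore differ slightly from the quotient of the printed means. Cry2 to Cry1 was 0.640, 0.642 and 0.670 with WT medium and 1.495, 1.39 and 1.45 with Alox5KO medium. Within each group these ratios were close together, and between the groups the ratio was 2.22-fold higher with Alox5KO medium. The more abundant cryptochrome transcript was thus Cry1 in all 3 WT-medium libraries and Cry2 in all 3 Alox5KO-medium libraries. Nr1d1 to Nr1d2 went from 0.475 ± 0.0122 to 0.712 ± 0.0832, and Nr1d1 to Arntl from 0.0929 ± 0.0187 to 0.239 ± 0.0299 (SD, n = 3 per group). Both ratios share Nr1d1, which was itself called higher, and they rose by 1.49-fold beside Nr1d2 and by 2.60-fold beside Arntl. Whether Nr1d1 acted on Arntl here was not tested. Bhlhe41 to Bhlhe40 went from 0.00874 ± 0.00217 to 0.0553 ± 0.00899 and remained far below 1, and Npas2 to Clock was 3.64-fold lower with Alox5KO medium, at 0.117 ± 0.0350 against 0.426 ± 0.127 (SD, n = 3 per group). Dbp to Nfil3, an activator and a repressor at shared D-box elements, went from 0.166 ± 0.0356 to 0.330 ± 0.0415 (SD, n = 3 per group), or 2.01-fold. The groups did not overlap for these 6 ratios or, by a narrow margin, for Per2 to Per1 (0.143 ± 0.0161 and 0.214 ± 0.0596, SD, n = 3 per group), and they overlapped for Per3 to Per1. Among single tested genes 37.6% did not overlap, and no such share was computed for ratios.

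**Figure D3:**
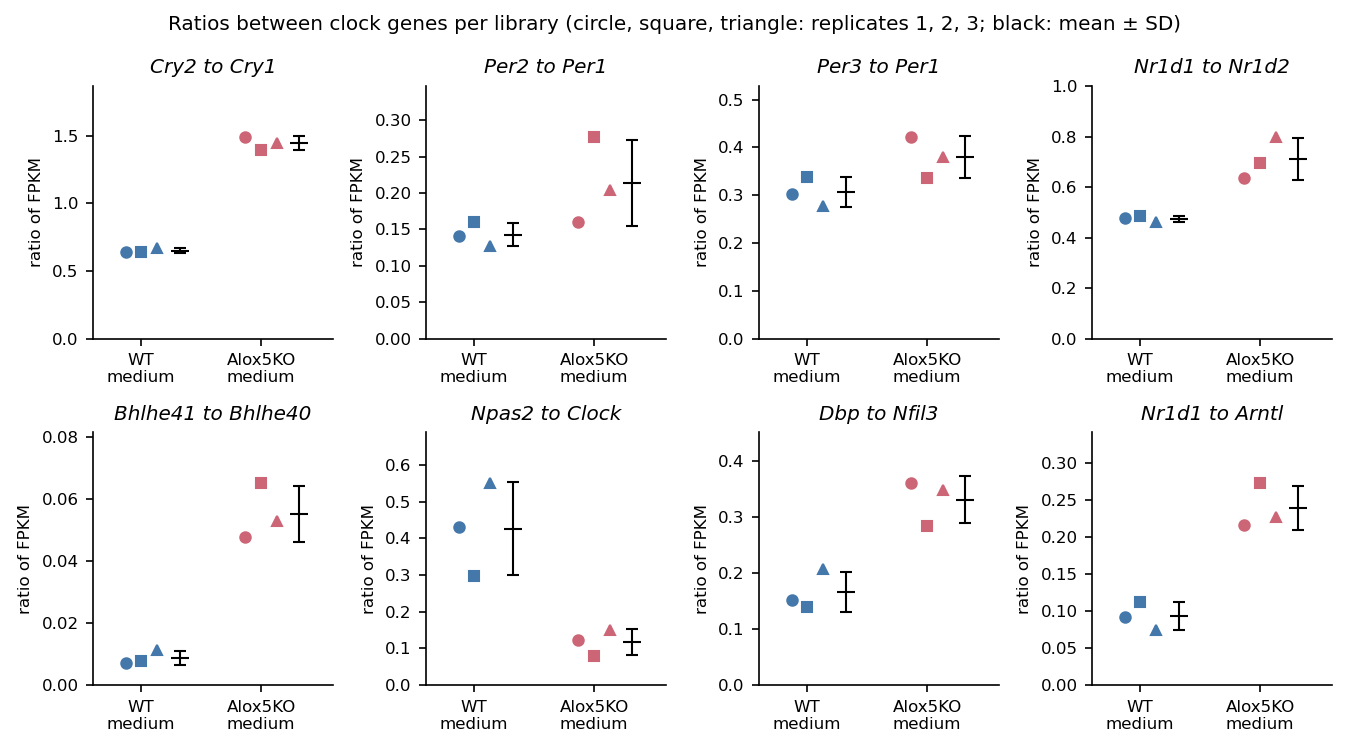
Ratio of FPKM between pairs of clock genes in each library, with WT medium in blue and Alox5KO medium in red, circles, squares and triangles for replicates 1, 2 and 3, and black bars for the mean ± SD (n = 3). Cry2 to Cry1 lies between 0.640 and 0.670 with WT medium and between 1.39 and 1.495 with Alox5KO medium, and the groups overlap only for Per3 to Per1.

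The genes with the profile most like that of a clock gene across the 6 libraries were looked up for Nr1d1 and Bhlhe40, the called genes with the smallest p in each direction, by Pearson correlation of log2(FPKM + 1). For Nr1d1 these were Pum3 (r = 0.998), Tmem65, Ift81, Thoc5 and Actb (r = 0.994). For Bhlhe40 they were P2ry2 (r = 0.998), Wnt2, Snx1, Hand2 and Nucb1 (r = 0.997), and none of these 10 is a clock gene of the lists used here. Such values are a description of 6 libraries in 2 groups. A gene that differs between the groups with little spread within them reaches a high r, and 348 tested genes had r of at least 0.95 with Nr1d1 and 486 with Bhlhe40.

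Clock protein level also depends on kinases, ubiquitin ligases and corepressors, and few of their genes passed. Of 26 such symbols, 24 were in the table and 22 were tested, of which 0 rose, 1 fell and 21 did not pass, against 20.7% called of all tested genes. The groups did not overlap for 3 of the 22, against 37.6% of all tested genes, and the median log2 fold change was 0.02. At an unadjusted limma p under 0.05 the list also held only that 1 gene, and limma-voom on the recovered reads gave 0 higher and 1 lower. The count of 1 went to 0 without a filter on low values, after rescaling to TPM, and when WT-medium replicate 1 or 3 or Alox5KO-medium replicate 2 or 3 was left out. The most abundant of the list, Ddb1, an adaptor of ubiquitin ligases, and Nono, an RNA-binding partner of the PER proteins, had log2 fold changes of -0.09 and -0.03, and the sign of Nono turned under TPM or quantile scaling.

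Genes known as clock outputs in other tissues are read here beside all tested genes, of which 10.03% rose and 10.6% fell. Of 16 such symbols, 12 were tested, of which 2 rose, 3 fell and 7 did not pass, with a median log2 fold change of -0.21. Alas1, the first enzyme of heme synthesis, went from 9.02 ± 0.321 FPKM with WT medium to 18.1 ± 3.45 with Alox5KO medium, and heme is the ligand of the REV-ERB receptors (SD, n = 3 per group; log2 fold change 0.91, adjusted p = 0.0017 by limma with Benjamini-Hochberg correction). Noct, the rhythmic phosphatase nocturnin, went from 2.25 ± 0.889 FPKM with WT medium to 4.78 ± 0.363 with Alox5KO medium (SD, n = 3 per group; log2 fold change 0.87, adjusted p = 0.017 by limma with Benjamini-Hochberg correction). Its call was lost without a filter on low values and without Alox5KO-medium replicate 2 or 3 (adjusted p up to 0.066). Nampt, the rate-limiting enzyme of NAD salvage and a target of CLOCK and BMAL1, went from 36.0 ± 2.65 FPKM with WT medium to 24.6 ± 1.52 with Alox5KO medium (SD, n = 3 per group; log2 fold change -0.53, adjusted p = 0.0049 by limma with Benjamini-Hochberg correction). Tspo, a protein of the outer mitochondrial membrane, fell by 0.48 on the log2 scale, though it did not pass without WT-medium replicate 1 (adjusted p = 0.068). Lonrf3 fell by 1.15, and its log2 fold change was -1.83 at a pseudocount of 0.1 and -1.93 by limma-voom. It entered the test through the WT-medium group, with 2.85 ± 0.504 FPKM there and 0.733 ± 0.150 with Alox5KO medium (SD, n = 3 per group). Cdkn1a, the cell cycle inhibitor p21 and the most abundant of these outputs besides Tspo, had a log2 fold change of 0.09 and did not pass.

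Glucocorticoids and cAMP induce Per1 directly, so genes of the same inputs were read beside it. Of 15 glucocorticoid-induced symbols, 11 were tested, of which 0 rose, 5 fell and 6 did not pass, beside 10.03% higher and 10.6% lower of all tested genes. Their median log2 fold change was -0.42, and 6 had an unadjusted limma p under 0.05. On the recovered reads limma-voom called 5 lower and 1 higher, the latter being Klf9, a Kruppel-like factor named after its values were seen (log2 fold change 0.44, adjusted p = 0.051 by limma with Benjamini-Hochberg correction on FPKM). The 5 were Sgk1 (-1.73), a kinase of ion transport, Glul (-2.56), glutamine synthetase, Fkbp5 (-1.26), a chaperone of the glucocorticoid receptor, Tsc22d3 (-0.64), known as GILZ, and the metallothionein Mt2A (-0.56), all as log2 fold changes. For Mt2A the call was lost in 11 of 16 alternatives. Cebpd, the most abundant tested gene of this list, went the other way with a log2 fold change of 0.27. It did not pass (adjusted p = 0.25 by limma with Benjamini-Hochberg correction). Of 18 cAMP-induced or CREB-induced symbols, 13 were tested, of which 5 rose, 3 fell and 5 did not pass, beside the same 10.03% and 10.6%, with a median log2 fold change of 0.04. The immediate early factors Nr4a1 (2.53), Fos (2.16) and Egr1 (2.04) rose, as did Nr4a2 (0.66, and 1.01 at a pseudocount of 0.1) and Gem (0.81), the last 2 named after their values were seen. Nr4a1, at 0.962 ± 0.176 FPKM with WT medium and 10.28 ± 0.715 with Alox5KO medium (SD, n = 3 per group), entered the test through the group in which it was high. The cAMP phosphodiesterase Pde4b (-2.26), the prostaglandin synthase Ptgs2 (-2.16) and the AP-1 factor Junb (-0.72) fell. Rgs2 (-0.57), a regulator of G protein signalling, did not pass, although it did with the replicate number as a block and without WT-medium replicate 3. Beside these genes Per1 had a log2 fold change of -0.05, with its 95% interval from -0.34 to 0.25. Glucocorticoid and cAMP signals were not measured, and their part in these differences was not tested.

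**Figure D4:**
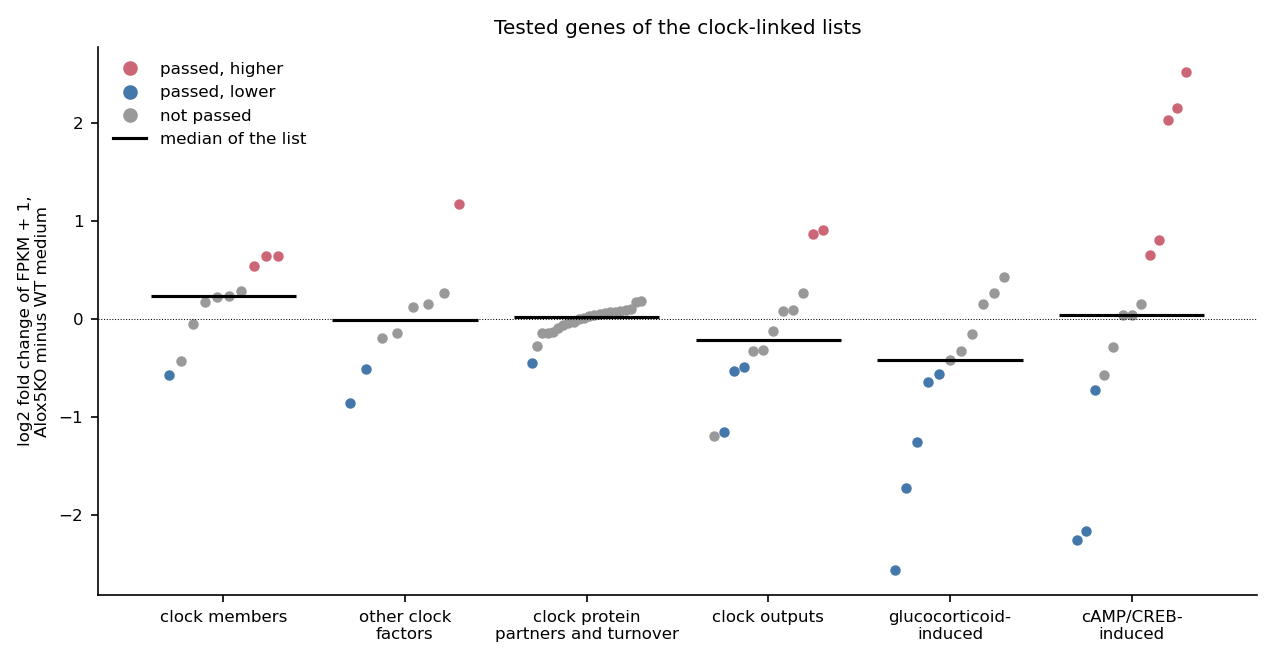
Log2 fold change of FPKM + 1, Alox5KO minus WT medium, for every tested gene of the clock genes, the other clock factors, clock protein partners and turnover, clock outputs, and glucocorticoid-induced and cAMP-induced or CREB-induced genes. Each point is a gene, red and blue mark genes that passed limma as higher or lower, and black lines are the medians, which run from -0.42 for the glucocorticoid-induced to 0.23 for the clock genes.

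Some cell type marker lists differed between the groups, beside 10.03% higher and 10.6% lower of all tested genes. Of the 12 fibroblast markers, all tested, 3 rose and 4 fell, and their sums overlapped, from 12040 to 12990 FPKM with WT medium and from 11600 to 13420 with Alox5KO medium. The 4 that fell were Dcn (log2 fold change -4.10), Lum (-2.10), Fn1 (-1.10) and Pdgfra (-1.09), and the 3 that rose were Col3a1 (0.84), Vim (0.80) and Tcf21 (0.69), all named after their values were seen. Summed cardiomyocyte markers ran from 32.7 to 57.4 FPKM with WT medium and from 105 to 131 with Alox5KO medium, mostly Tnnt2, and 4 of 8 tested rose. Of these 4, Myh7 and Pln (named after their values were seen) entered the test through the Alox5KO-medium group in which they were high. Smooth muscle and pericyte markers, mostly Tagln and Acta2, summed to between 1086 and 1191 FPKM with WT medium and between 5002 and 6856 with Alox5KO medium. None was at 0 in all libraries, though Rgs5 had only 3 and 2 reads and was not tested. Of the 9 tested, 8 rose, of which Notch3 entered the test through the Alox5KO-medium group. Des was on the lower side and did not pass (log2 fold change -0.65, adjusted p = 0.31 by limma with Benjamini-Hochberg correction). Acta2, Rgs5, Notch3 and Des were named after their values were seen. Mast cell markers summed to between 47.4 and 64.9 FPKM with WT medium and between 25.0 and 34.5 with Alox5KO medium, mostly Cpa3, and Fcer1a, Ms4a2 and Tpsb2 were at 0 in all 6 libraries. Leukocyte markers, led by Lyz2, summed to between 10.4 and 16.3 FPKM with WT medium and between 10.5 and 21.3 with Alox5KO medium, with Cd3e at 0 throughout, and endothelial markers, led by Tek, to between 4.80 and 7.03 and between 4.13 and 4.83 FPKM. The sums of both these lists overlapped between the groups, those of the endothelial markers only narrowly. Of the tested markers, 2 of 3 for mast cells fell and 0 of 2 for leukocytes passed. The 1 endothelial marker tested, Tek, fell. Erg (named after its values were seen) lay under the filter and went the other way, with overlapping groups. It had 0.29 ± 0.24 FPKM with WT medium and 1.19 ± 0.63 with Alox5KO medium (SD, n = 3 per group). The part of the marker differences in the clock gene results was not tested. The recovered reads of a library summed to between 13284088 and 15766187. Correlations of log2(FPKM + 1) over the tested genes were 0.977 to 0.986 inside a group and 0.928 to 0.943 across groups.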

How the data were processed

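RNA was isolated with TRIzol and libraries were made with a NEBNext Ultra kit, per the labels' protocols. Per the submitters' processing notes, which give no roles, the tools were HISAT2 2.0.5, featureCounts 1.5.0-p3, fastp, CASAVA 1.8 and DESeq2 1.20.0, and the build was mouse mm10. The labels give mouse as the organism, but 32883 of the 33682 rows carry rat Ensembl identifiers and 0 carry mouse ones. No rat build is named in the sources used here, and coordinates are those of the table.

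The authors deposited FPKM values with gene lengths, 1 column per sample, per the file headers. Read numbers were recovered by dividing FPKM times gene length by the smallest step of each column, which gave whole numbers (within 0.05 reads) for 100% of values above 0. The library size implied by that step was 0.990 to 1.03 times the sum of the recovered reads. The reason for this difference was not tested. In a gene of 1 kilobase, 3 reads correspond to 0.185 to 0.228 FPKM, which covers only counting error.

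Genes whose mean reached 1 FPKM were compared on log2(FPKM + 1) with limma 3.58.1 in R 4.3.3 (trend, robust prior, two-sided, Benjamini-Hochberg adjustment at 0.05 over all 12341 tested genes, 3 against 3 samples, no replicate block). Clock genes and gene lists were chosen with earlier results of these data known. Named genes were the 10 clock genes, all other clock factors, up to 5 called genes with the smallest p and up to 2 of the most abundant of each further list, the most abundant marker of each cell type, and the 5 genes most correlated with Nr1d1 and with Bhlhe40. Alternatives were other pseudocounts (0.1, 0.5), no filter, a mean of at least 5 FPKM, TPM scaling, quantile normalization, median centring, no robust prior, a replicate block, each library left out, and limma-voom on the recovered reads, which was added after the data were seen. No sequences are printed, and some genes of the lists are not reported here by name.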

Additional observations from a re-analysis of the deposited data

How the results depend on the processing

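Leaving out each library in turn gave between 791 and 1226 genes called higher and between 862 and 1325 called lower over the whole table, both lowest without WT-medium replicate 1, and between 1 and 3 clock genes called higher. With a mean of at least 5 FPKM required, 1 clock gene was called higher, since fewer clock genes were tested. Nr1d1 and Bhlhe40 were called under every alternative that tested them (15 and 16). The sign of Per1, which did not pass, turned under TPM scaling (0.0071) and without WT-medium replicate 3 or Alox5KO-medium replicate 1, with a range of -0.11 to 0.040 over the libraries left out. The sign of Nono turned under TPM scaling (0.032) and quantile normalization (0.023). The cause was not tested. TPM scaling moved the median of all tested genes to 0.06 on the log2 scale. Limma-voom on the recovered reads, chosen after seeing the data, called 2703 genes and the same number of clock genes (3 higher, 1 lower).

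The labels do not say whether the replicate numbers pair the samples. Deviations from the group means correlated at -0.10, 0.10 and 0.17 between libraries with the same number. Between libraries with different numbers they correlated at -0.19 to 0.10. With 3 libraries per group these values cannot settle whether the samples were paired. With the replicate number as a block 2652 genes were called, and 3 clock genes higher and 1 lower. Tests on counts with edgeR or DESeq2 were planned and not run. The deposited unit is FPKM, and limma-voom was the only fit made on the recovered reads. Ciart, Per2, Dbp and Nr1d1 rest on the fewest reads of the 10 genes.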
